A study of Mus musculus with 12 samples.

Results

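The epithelial keratins described here are Krt7, Krt8, Krt18, Krt19, Krt20, Krt23 and Krt80, which are 7 of the 55 genes with a keratin symbol among the 45777 genes measured by mRNA sequencing. They were taken by gene symbol, as a list drawn up with earlier results of these data known, and all 7 were counted deeply enough to be tested. The RNA came from mpkCCDc11 cells, a single mouse cell line from cortical collecting duct, labelled as epithelial cells, and the study asked how TAZ bears on aquaporin-2, the water channel that vasopressin controls. The 12 libraries formed 4 groups of 3. The first had the genotype label TAZ knockdown and received siRNA against TAZ (a Hippo pathway coactivator encoded by Wwtr1) and dDAVP (a vasopressin analogue, 1e-09 M, given basolaterally). The second, with the same genotype label, received TAZ siRNA and vehicle, the third control siRNA and dDAVP with the label WT, and the fourth control siRNA and vehicle with the label WT. The cells of all 4 groups were grown on permeable filters and then kept without serum and hormones before dDAVP or vehicle. Several dDAVP exposure times are listed in the labels, without the one used for these libraries. Nothing in the labels says that replicates were cultured separately, so the p-values rest on a spread among libraries that may be technical.

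Keratins are the intermediate filament proteins of epithelial cells. A filament is built from pairs of 1 acidic type I and 1 basic type II keratin, so the protein of both types is needed. Krt8 (type II) and Krt18 (type I) are the main pair of simple, single-layered epithelia, which include the collecting duct. Krt7 (type II) and Krt19 (type I) are added in ducts and urothelium, and Krt20 (type I) is known from intestinal epithelium and the umbrella cells of the urothelium. The filaments are anchored to desmosomes and hemidesmosomes by linker proteins of the plakin family.

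The libraries held between 45095331 and 61725339 estimated counts. Wwtr1 averaged 114 ± 10.7 counts-per-million units (CPM) in the TAZ siRNA dDAVP group, 116 ± 2.51 in the TAZ siRNA vehicle group, 166 ± 6.62 in the control siRNA dDAVP group and 181 ± 4.42 in the control siRNA vehicle group (SD, n = 3 each), so the knockdown was partial. The 16 markers of collecting duct and epithelium had a summed level of 3852 to 4245 CPM over the 12 libraries. Most of this sum was Cdh16, Cdh1 and Epcam, at means of 1493, 1268 and 505 CPM with control siRNA and vehicle. The sum therefore says little about the less abundant markers, and 2 of the 16, Aqp4 and Elf5, stayed under 1 CPM in all 12 libraries. Of 16 markers of stratified squamous epithelium, which has keratins of its own, 15 stayed under 1 CPM in all 12 libraries. The exception was the keratin Krt10, at group means of 1.33 to 1.61 CPM. The basal keratins Krt5 and Krt14 reached at most 0.0709 and 0.0645 CPM. Aqp2, the dDAVP-responsive water channel gene, averaged 11.0 ± 2.39 CPM with TAZ siRNA and dDAVP and 34.7 ± 8.77 CPM with control siRNA and dDAVP, against 0.340 ± 0.00341 CPM with control siRNA and vehicle (SD, n = 3 each); with TAZ siRNA and vehicle it had a count in replicate 1 and was at 0 in the other two libraries. Urothelial markers, read because urothelium shares Krt7, Krt19 and Krt20, summed to 90.01 to 118 CPM, with 3 of 5 under 1 CPM in all 12 libraries, and fibroblast, endothelial and immune markers summed to 8.90 to 11.7 CPM. The libraries of a group differed from each other by more than sampling noise. Single libraries stood apart from their groups on principal components of the tested genes above a minimum mean level. On the second component TAZ siRNA dDAVP replicate 2 was at -3.06, against -13.1 and -15.0 for the other two libraries of that group. On the third, TAZ siRNA vehicle replicate 1 was at 11.1, against -6.42 and -8.24 for the other two, and control siRNA dDAVP replicate 1 was at 10.8, against -5.50 and -4.39 for the other two.

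Krt8, Krt18, Krt23 and Krt20 are shown by the 250 bases before their annotated starts. Krt8 and Krt18 are the filament pair whose changes were alike, Krt23 had the largest dDAVP change among the 7, and Krt20 had the largest increase with TAZ siRNA in vehicle after Krt80. The sequences are from RefSeq (GRCm38.p6, the mm10 assembly), 5′ to 3′ on the gene's strand, and capitals mark the motif matches described after them. The windows are chr15:102004343-102004592 on the minus strand for Krt8, chr15:102027966-102028215 on the plus strand for Krt18, chr11:99493121-99493370 on the minus strand for Krt23 and chr11:99438154-99438403 on the minus strand for Krt20.
Krt8: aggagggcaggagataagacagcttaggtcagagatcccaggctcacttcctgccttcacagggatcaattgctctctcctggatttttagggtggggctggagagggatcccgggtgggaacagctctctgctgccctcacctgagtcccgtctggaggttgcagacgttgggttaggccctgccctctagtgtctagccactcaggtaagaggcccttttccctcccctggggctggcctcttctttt
Krt18: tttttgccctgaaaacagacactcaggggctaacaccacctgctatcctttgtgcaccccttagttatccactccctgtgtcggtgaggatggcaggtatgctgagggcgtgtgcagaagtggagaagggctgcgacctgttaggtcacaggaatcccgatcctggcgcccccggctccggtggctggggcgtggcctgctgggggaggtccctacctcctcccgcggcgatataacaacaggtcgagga
Krt23: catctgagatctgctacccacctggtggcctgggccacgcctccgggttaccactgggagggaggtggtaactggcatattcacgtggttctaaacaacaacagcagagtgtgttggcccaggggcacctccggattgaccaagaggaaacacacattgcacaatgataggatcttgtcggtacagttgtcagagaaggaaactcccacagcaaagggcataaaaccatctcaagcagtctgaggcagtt
Krt20: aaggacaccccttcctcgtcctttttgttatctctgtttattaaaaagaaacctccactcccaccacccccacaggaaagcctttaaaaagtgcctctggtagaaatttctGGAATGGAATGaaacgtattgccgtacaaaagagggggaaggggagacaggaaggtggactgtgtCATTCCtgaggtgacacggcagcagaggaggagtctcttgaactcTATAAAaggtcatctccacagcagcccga
The Krt8 and Krt18 windows had 58% and 60.4% G and C, the Krt23 window 52.8% and the Krt20 window 48%. A set of 5 motifs was searched on both strands in the windows of 5 members, Krt7 among them (66% G and C). The windows of Krt19 and Krt80 were not analysed here. The motifs were the full cAMP response element TGACGTCA (in 1.55% of all 32851 windows of this length), its core TGACG (17.8%), which the full element contains, the TEAD core GGAATG (12.6%), the AP-1 element TGANTCA (6.75%) and the TATA element TATAAA (12.4%). Only the Krt20 window held any of them. It had GGAATG starting 139 and 134 bases before the start, which overlap by 1 base, and the same motif on the opposite strand, written CATTCC, 74 bases before the start. It also had TATAAA starting 29 bases before the start. A match is a string of letters and not a binding site, and no match says only that these letters were not in these windows.

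Krt18 (gene ID 16668, chr15:102028216-102032026, mm10) and Krt8 (16691, chr15:101996711-102004342) are neighbours on chromosome 15, together with Krt7 (110310, chr15:101412403-101427806) and Krt80 (74127, chr15:101348315-101370162). The type I genes Krt19 (16669, chr11:100140810-100145926), Krt20 (66809, chr11:99428385-99438153) and Krt23 (94179, chr11:99477973-99493120) are on chromosome 11. Krt18 is the type I gene that lies beside its type II partner rather than with the other type I genes.

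The keratin mRNA of these cells was almost entirely that of simple epithelia. Per length, in transcripts-per-million units (TPM), Krt18 was the most abundant of the 7 in each group, followed by Krt8, Krt7, Krt19, Krt20, Krt80 and Krt23. In the control siRNA vehicle group Krt18 averaged 1281 ± 20.6 TPM and Krt8 960.3 ± 14.2 TPM, against 2.43 ± 0.724 TPM for Krt23 (SD, n = 3). The pseudogene Krt8-ps, a near-identical copy of Krt8, was listed above Krt20, at group means of 76.6 to 104 TPM. It was left out of the pool as a pseudogene, and the 7 members made up 99.84% to 99.89% of the summed TPM of the other 54 keratin genes in the 12 libraries, or 97.4% to 97.8% with Krt8-ps in the sum.

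Under dDAVP the keratin pool was larger and its mix leaned to type I. The summed keratin level was 4168 ± 123 TPM in the TAZ siRNA dDAVP group and 3499 ± 239 TPM in the TAZ siRNA vehicle group. It was 4511 ± 105 TPM in the control siRNA dDAVP group and 3227 ± 56.0 TPM in the control siRNA vehicle group (SD, n = 3 each). The dDAVP libraries lay above the vehicle libraries with either siRNA, with no overlap. Since Krt8 and Krt18 dominate the sum, these levels are mostly theirs. Type I over type II TPM was 1.06 ± 0.0176 with TAZ siRNA and dDAVP and 0.959 ± 0.00709 with TAZ siRNA and vehicle. With control siRNA it was 1.22 ± 0.00355 under dDAVP and 0.993 ± 0.0141 under vehicle. The ranges of this ratio did not overlap between any of the 4 groups. The TPM of Krt8 over that of Krt18, the ratio within the main pair, was 0.723 with TAZ siRNA and dDAVP, 0.755 with TAZ siRNA and vehicle, 0.694 with control siRNA and dDAVP and 0.750 with control siRNA and vehicle. These sums and ratios are descriptions, without a test.

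**Figure D1:**
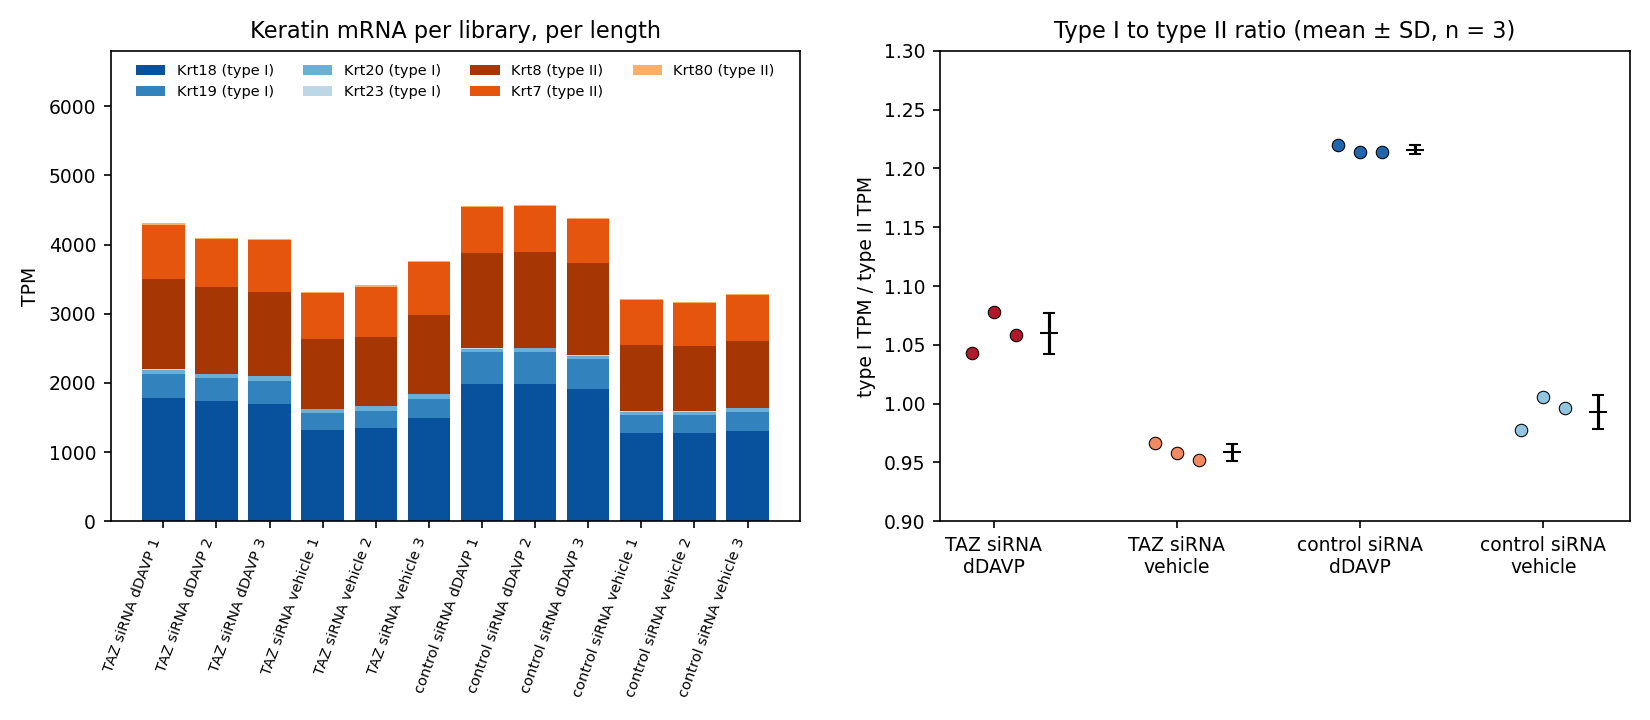
Left, TPM of the 7 epithelial keratins stacked per library (vertical axis from 0), with the 3 libraries of each group side by side. Right, the ratio of summed type I to summed type II keratin TPM per library (points) with the group mean and SD (n = 3 each, on an axis that does not start at 0); the control siRNA dDAVP libraries stand highest, at a mean of 1.22, and the TAZ siRNA vehicle libraries lowest, at 0.959.

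The shares of the pool show which members carried the shift. Krt18 made up 41.7% of keratin TPM in the TAZ siRNA dDAVP group, 39.7% in the TAZ siRNA vehicle group, 43.5% in the control siRNA dDAVP group and 39.7% in the control siRNA vehicle group. Krt8 stayed between 29.8% and 30.2% in the 4 group means. Krt7 made up 17.9% with TAZ siRNA and dDAVP, 20.5% with TAZ siRNA and vehicle, 14.7% with control siRNA and dDAVP and 20.0% with control siRNA and vehicle. Krt19 made up 8.12% with TAZ siRNA and dDAVP, 7.13% with TAZ siRNA and vehicle, 10.0% with control siRNA and dDAVP and 8.40% with control siRNA and vehicle. By group means Krt18 and Krt19 took a larger share under dDAVP and Krt7 a smaller one, while the share of Krt8 hardly moved. A smaller share is not a lower level, since the shares add up to the whole. Krt7 averaged 661 TPM under dDAVP and 645 TPM under vehicle with control siRNA, and 748 and 719 TPM with TAZ siRNA. Krt8 averaged 1362 against 960 TPM and 1257 against 1048 TPM in the same comparisons. Krt20 was a small part, at 1.43% with TAZ siRNA and dDAVP, 2.01% with TAZ siRNA and vehicle, 1.07% with control siRNA and dDAVP and 1.55% with control siRNA and vehicle.

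dDAVP raised the keratins Krt8, Krt18, Krt19 and Krt23 with control siRNA and again with TAZ siRNA. With control siRNA Krt23 rose by 1.98 ± 0.23 log2 units, Krt19 by 0.79 ± 0.05, Krt18 by 0.67 ± 0.04 and Krt8 by 0.56 ± 0.05 (SE). Krt7, Krt20 and Krt80 did not pass the test with either siRNA. The dDAVP change of Krt8, Krt18 and Krt19 was smaller in size with TAZ siRNA, but the difference between the siRNAs did not pass the test over all genes. The values follow by role, first the main pair, then its duct partners, then the 3 less abundant members. Levels between groups are in CPM after scaling for library size, fold changes are on the log2 scale, and a gene is called where the p-value of edgeR's quasi-likelihood test, adjusted by Benjamini-Hochberg over 15932 genes, is under 0.05. In RNA from a whole culture, fewer cells of a kind and less RNA per cell cannot be told apart.

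With control siRNA, 4 of the 7 keratins were called, all higher, where 19.2% of all tested genes were called (9.72% higher and 9.48% lower). With TAZ siRNA the same 4 were called higher, where 10.8% of genes were called (6.38% higher and 4.41% lower). The median log2 fold change of the 7 was 0.56 with control siRNA and 0.29 with TAZ siRNA, beside -0.00125 and -0.000854 for all tested genes. These counts were the same under DESeq2, other size factors and no filter on low counts. The 4 were also still called with each siRNA without TAZ siRNA vehicle replicate 1 or control siRNA dDAVP replicate 1. Without TAZ siRNA dDAVP replicate 2 they were still called with TAZ siRNA, at 0.30 for Krt8, 0.36 for Krt18, 0.50 for Krt19 and 1.83 for Krt23 on the log2 scale. Summed markers of other nephron segments were lower under dDAVP in these libraries, at 206 to 217 CPM against 251 to 264 CPM under vehicle with TAZ siRNA, and at 209 to 226 CPM against 274 to 285 CPM with control siRNA (4 of the 10 markers were tested, 2 of them called lower, and 3 were at 0 in all 12 libraries). Of the expressed urothelial markers, Upk3b fell under dDAVP by 0.30 ± 0.06 log2 units with TAZ siRNA (edgeR adjusted p = 0.00185) and by 0.44 ± 0.06 with control siRNA (edgeR adjusted p = 2.91e-05), while Upk1a rose by 0.40 ± 0.07 with TAZ siRNA (edgeR adjusted p = 0.00151) and lay at 0.20 ± 0.07 with control siRNA (edgeR adjusted p = 0.0652). The part of these markers in the keratin result was not tested.

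**Figure D2:**
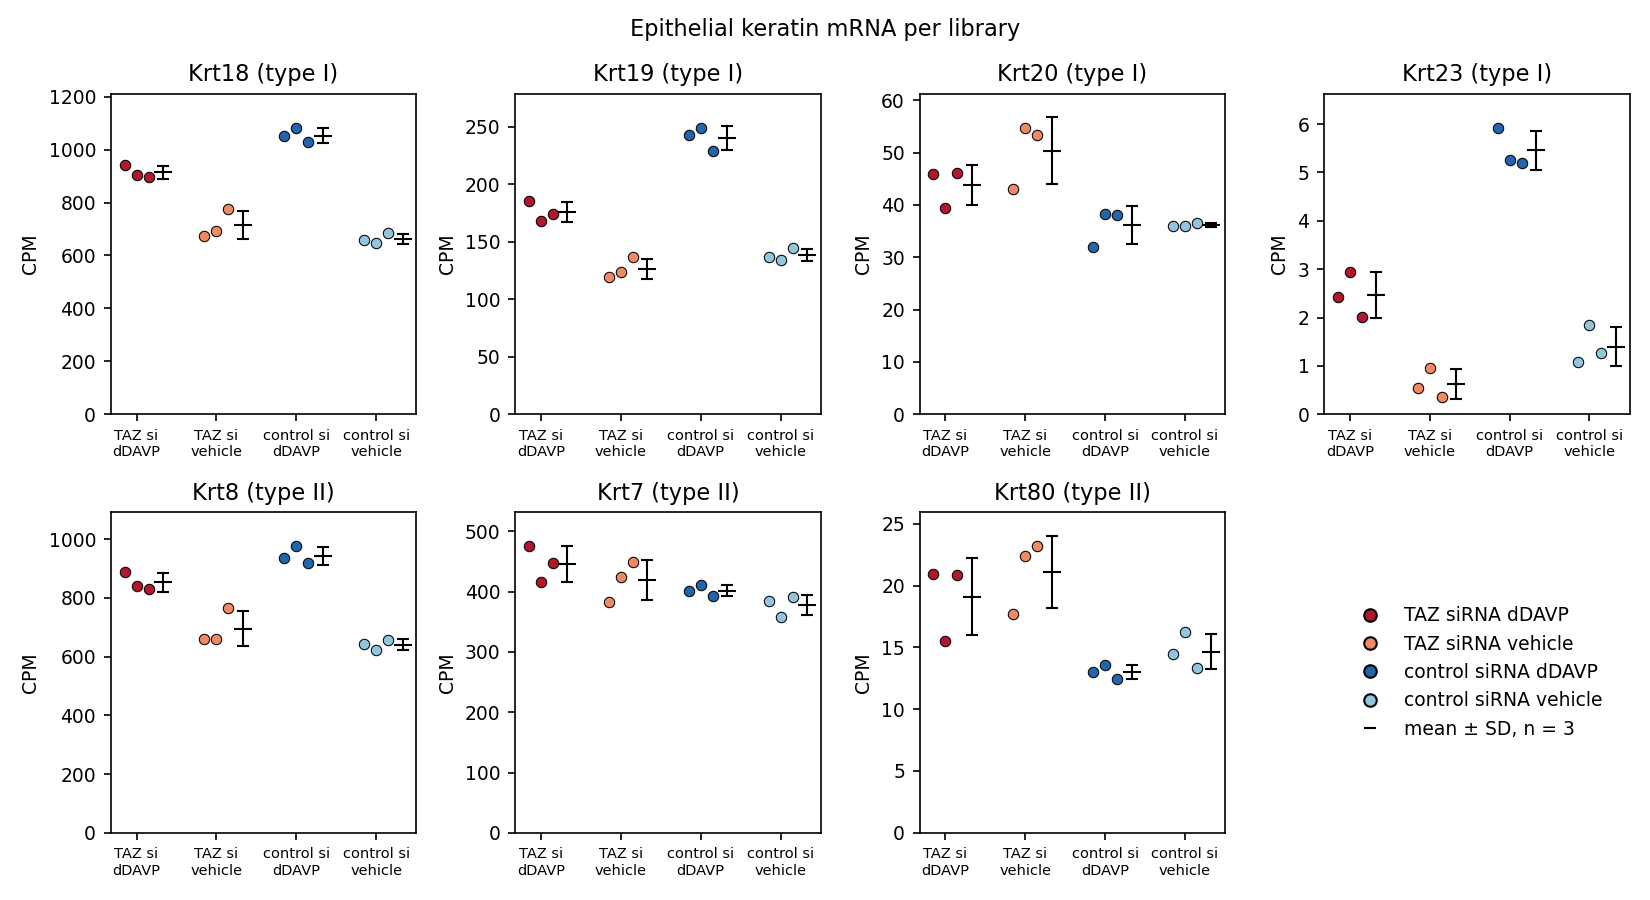
Level of each epithelial keratin in the 12 libraries, in CPM from 0 upward on an axis of its own for each gene; points are libraries and the bars are the group mean ± SD (n = 3). The dDAVP libraries of Krt8, Krt18, Krt19 and Krt23 lie above the vehicle libraries of the same siRNA, and the TAZ siRNA libraries of Krt20 and Krt80 lie above the control siRNA libraries under vehicle.

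Krt8, the type II keratin of the main pair, had 889, 839 and 830 CPM in the TAZ siRNA dDAVP libraries and 660, 660 and 765 CPM in the TAZ siRNA vehicle libraries. It had 936, 975 and 917 CPM in the control siRNA dDAVP libraries and 643, 622 and 658 CPM in the control siRNA vehicle libraries. The 4 groups did not overlap, and the highest TAZ siRNA vehicle library, replicate 3, was the one nearest to the dDAVP libraries. Krt8 rose under dDAVP by 0.29 ± 0.05 log2 units with TAZ siRNA (1.23-fold, edgeR adjusted p = 0.000499) and by 0.56 ± 0.05 with control siRNA (1.47-fold, edgeR adjusted p = 2.59e-07).

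Krt18, its type I partner, had 943, 903 and 898 CPM in the TAZ siRNA dDAVP libraries and 675, 692 and 775 CPM in the TAZ siRNA vehicle libraries. It had 1050, 1082 and 1028 CPM in the control siRNA dDAVP libraries and 659, 647 and 683 CPM in the control siRNA vehicle libraries. The groups fell in the same order as for Krt8, highest with control siRNA and dDAVP, except that the vehicle groups of the siRNAs overlapped. Krt18 rose under dDAVP by 0.36 ± 0.04 log2 units with TAZ siRNA (1.28-fold, edgeR adjusted p = 1.83e-05) and by 0.67 ± 0.04 with control siRNA (1.59-fold, edgeR adjusted p = 4.56e-09).

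Over the 12 libraries Krt8 and Krt18 were close to each other in pattern. The root mean square difference of their centred log2 CPM was 0.0498, smaller than between Krt18 and Krt19 (0.137). The nearest genes that are no keratin were taken from all tested genes. For Krt8 they were Tuba4a (0.0525), an alpha-tubulin, Bcar3 (0.0596), an adaptor protein of integrin signalling, and Ctsd (0.0673), the lysosomal protease cathepsin D. The nearest to Krt18 were Tuba4a (0.0582), Bcar3 (0.0652) and Mrps6 (0.0725), a protein of the mitochondrial ribosome. This is a likeness of pattern, with libraries as shared points.

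Krt8 has a near-identical copy, the pseudogene Krt8-ps (chr7:23357094-23358779), with 98.6% identity over 941 bases. Krt8-ps held 6.64% to 7.96% as many counts as Krt8, and how the authors' counting shared out reads between them is not stated. Krt8-ps was itself called higher under dDAVP, by 0.31 ± 0.06 log2 units with TAZ siRNA (edgeR adjusted p = 0.00404) and by 0.47 ± 0.06 with control siRNA (edgeR adjusted p = 4.59e-05). With the counts of both added together, the dDAVP change was 0.30 with TAZ siRNA and 0.55 with control siRNA. Krt18 matched Gm5200 at 90.2% over 1269 bases, but that copy held 11 counts in all.

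Krt19, the type I keratin of ducts, which lacks most of the tail domain of other keratins, had 186, 168 and 174 CPM in the TAZ siRNA dDAVP libraries and 120, 124 and 136 CPM in the TAZ siRNA vehicle libraries. It had 243, 249 and 228 CPM in the control siRNA dDAVP libraries and 137, 134 and 145 CPM in the control siRNA vehicle libraries. The dDAVP groups were apart from each other and from both vehicle groups, and the vehicle groups overlapped. Krt19 rose under dDAVP by 0.47 ± 0.05 log2 units with TAZ siRNA (1.39-fold, edgeR adjusted p = 3.4e-06) and by 0.79 ± 0.05 with control siRNA (1.73-fold, edgeR adjusted p = 2.79e-09). Its nearest genes in pattern were Cpt1a (0.0842), the enzyme that brings fatty acids to the mitochondrial matrix for oxidation, Bcl2l14 (0.0886) and Nfkbiz (0.109), a nuclear regulator of NF-kappaB targets.

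Krt7, the type II keratin of ducts, had 475, 416 and 448 CPM in the TAZ siRNA dDAVP libraries and 383, 424 and 449 CPM in the TAZ siRNA vehicle libraries. It had 401, 412 and 393 CPM in the control siRNA dDAVP libraries and 384, 359 and 391 CPM in the control siRNA vehicle libraries. The TAZ siRNA vehicle group overlapped each of the other groups. The control siRNA dDAVP libraries lay above the control siRNA vehicle libraries, with no overlap. The dDAVP change was 0.09 log2 units with each siRNA (edgeR adjusted p = 0.331 with TAZ siRNA and 0.304 with control siRNA), with a 95% interval of -0.02 to 0.21 and of -0.03 to 0.20. Its nearest genes in pattern were Shmt2 (0.0283), a mitochondrial serine hydroxymethyltransferase, Adrm1 and Cdc34, which act in the proteasome and in ubiquitin conjugation.

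Krt23, a type I keratin found in human pancreatic cancer cells as a gene induced by a histone deacetylase inhibitor, was the rarest of the 7. It had 2.42, 2.95 and 2.01 CPM in the TAZ siRNA dDAVP libraries and 0.549, 0.960 and 0.355 CPM in the TAZ siRNA vehicle libraries. It had 5.92, 5.26 and 5.19 CPM in the control siRNA dDAVP libraries and 1.08, 1.85 and 1.27 CPM in the control siRNA vehicle libraries. The 4 groups were apart, with control siRNA above TAZ siRNA in either treatment and dDAVP above vehicle with either siRNA. Krt23 rose under dDAVP by 1.98 ± 0.26 log2 units with TAZ siRNA (3.95-fold, edgeR adjusted p = 6.36e-05) and by 1.98 ± 0.23 with control siRNA (3.93-fold, edgeR adjusted p = 8.16e-06). The counts behind these levels were low, 91 to 144 with TAZ siRNA and dDAVP, 22 to 59 with TAZ siRNA and vehicle, 285 to 345 with control siRNA and dDAVP and 61 to 87 with control siRNA and vehicle.

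Krt20 had 45.9, 39.4 and 46.2 CPM in the TAZ siRNA dDAVP libraries and 43.1, 54.7 and 53.4 CPM in the TAZ siRNA vehicle libraries. It had 32.0, 38.3 and 38.1 CPM in the control siRNA dDAVP libraries and 35.9, 36.0 and 36.5 CPM in the control siRNA vehicle libraries. The libraries parted by siRNA, with the TAZ siRNA libraries above, and not by dDAVP. Its dDAVP change was -0.20 ± 0.09 log2 units with TAZ siRNA (edgeR adjusted p = 0.167; 0.0114 without TAZ siRNA vehicle replicate 1) and -7.03e-05 ± 0.09 with control siRNA (edgeR adjusted p = 0.999). Genes nearest to it in pattern were S100a10 (0.0658), a partner of annexin A2, Nrp2 (0.0854), a semaphorin and VEGF receptor, and Fhl3 (0.0868), a LIM domain protein.

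Krt80, a type II keratin that in human epithelia lies near the cell margin, had 20.9, 15.5 and 20.9 CPM in the TAZ siRNA dDAVP libraries and 17.7, 22.4 and 23.2 CPM in the TAZ siRNA vehicle libraries. It had 13.0, 13.6 and 12.4 CPM in the control siRNA dDAVP libraries and 14.4, 16.2 and 13.4 CPM in the control siRNA vehicle libraries. Neighbouring groups in the order of levels overlapped, while the vehicle groups of the siRNAs were apart, as were the dDAVP groups. Its dDAVP change was -0.14 ± 0.11 log2 units with TAZ siRNA (edgeR adjusted p = 0.498) and -0.17 ± 0.12 with control siRNA (edgeR adjusted p = 0.38). Over the 12 libraries Krt80 was 0.143 from Krt20 in pattern, and Wnt10a (0.0987), a Wnt ligand, Cxcl16 (0.113), a chemokine, and Irf5 (0.131), an interferon regulatory factor, were the nearest other genes.

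**Figure D3:**
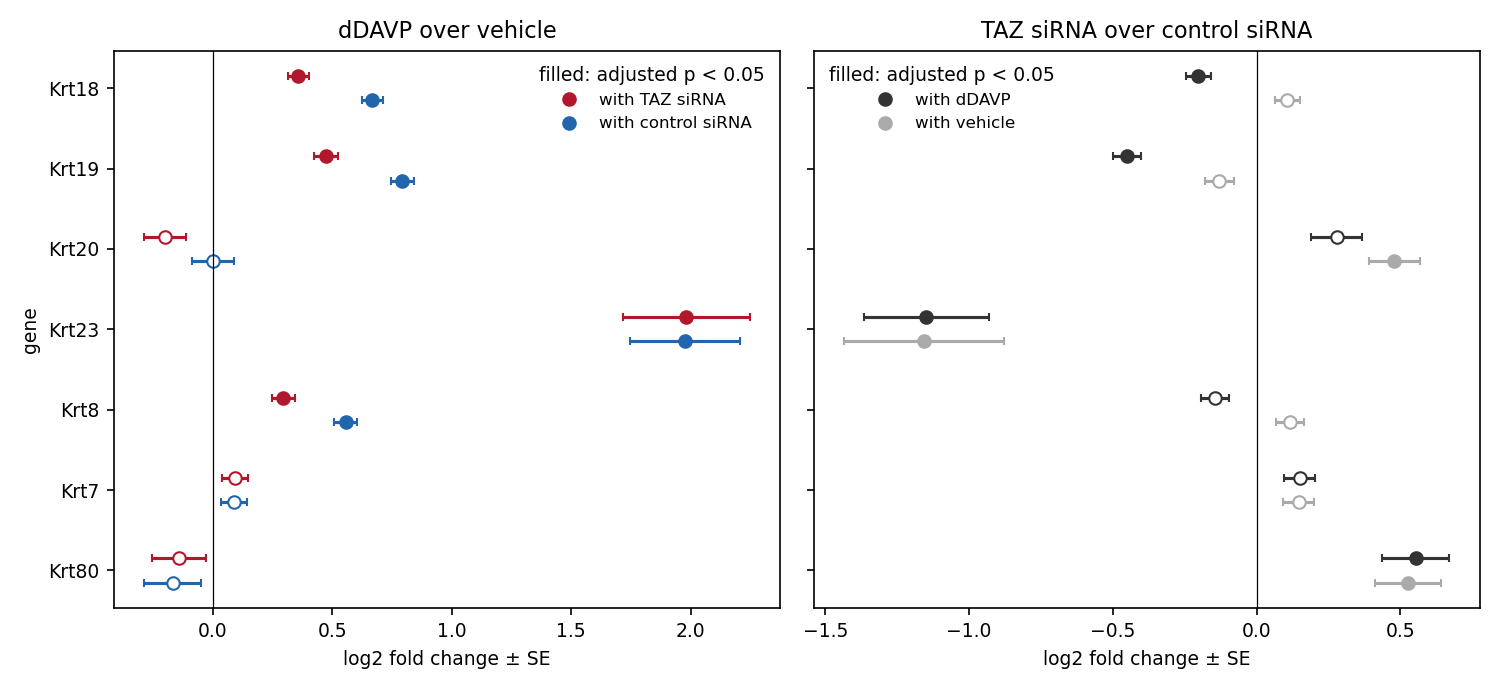
Log2 fold change ± SE of each epithelial keratin, for dDAVP over vehicle (left) and TAZ siRNA over control siRNA (right), from edgeR's quasi-likelihood fit (3 libraries per group); filled symbols passed an adjusted p of 0.05. Krt8, Krt18, Krt19 and Krt23 lie right of 0 in both dDAVP comparisons, and Krt23 lies left of 0 in both TAZ siRNA comparisons while Krt80 lies right of it.

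TAZ siRNA was set against control siRNA under each treatment. Under vehicle Krt20 was 1.39-fold and Krt80 1.44-fold as high with TAZ siRNA as with control siRNA, and Krt23 was 0.449-fold as high. Under dDAVP Krt80 was again higher (1.47-fold), and Krt18, Krt19 and Krt23 were lower, at 0.869-fold, 0.732-fold and 0.451-fold. Krt8 and Krt7 were not called in either treatment. These comparisons use the same 12 libraries as the dDAVP comparisons, so they are not independent of them.

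Under vehicle, TAZ siRNA gave 2 keratins called higher and 1 called lower of 7, where 6.3% of all tested genes were called (3.19% higher and 3.11% lower). Krt20 rose by 0.48 ± 0.09 log2 units (edgeR adjusted p = 0.00418) and Krt80 by 0.53 ± 0.11 (edgeR adjusted p = 0.0123), while Krt23 fell by 1.16 ± 0.28 (edgeR adjusted p = 0.02). The Krt80 call did not hold without TAZ siRNA vehicle replicate 2 (adjusted p = 0.0637 in edgeR), without replicate 3 of that group (0.0589) or without control siRNA vehicle replicate 3 (0.0573). The Krt23 call did not hold without TAZ siRNA vehicle replicate 3 (edgeR adjusted p = 0.0868), without control siRNA vehicle replicate 2 (0.0897) or with the compared groups fitted alone (0.0549). For the main pair the change was 0.12 ± 0.05 for Krt8 (edgeR adjusted p = 0.18) and 0.11 ± 0.04 for Krt18 (edgeR adjusted p = 0.166). The duct keratins had 0.15 ± 0.05 for Krt7 (edgeR adjusted p = 0.125; 0.0164 without TAZ siRNA vehicle replicate 1) and -0.13 ± 0.05 for Krt19 (edgeR adjusted p = 0.141; 0.0417 without TAZ siRNA vehicle replicate 3). The median of the 7 was 0.12, beside 0.00174 for all tested genes. In the same comparison the urothelial marker Upk1a fell by 0.44 ± 0.07 (edgeR adjusted p = 0.00209), and the urothelial marker Upk3b lay at 0.18 ± 0.06 (edgeR adjusted p = 0.0829). Their part in the Krt20 result was not tested.

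Under dDAVP, TAZ siRNA gave 1 keratin called higher and 3 called lower of 7, where 10.7% of all tested genes were called (5.77% higher and 4.97% lower). Krt19 fell by 0.45 ± 0.05 log2 units (edgeR adjusted p = 1.75e-05), Krt18 by 0.20 ± 0.04 (edgeR adjusted p = 0.00511) and Krt23 by 1.15 ± 0.22 (edgeR adjusted p = 0.00229). Krt80 rose by 0.55 ± 0.12 (edgeR adjusted p = 0.00615). Krt8 lay at -0.14 ± 0.05 (edgeR adjusted p = 0.0677), Krt7 at 0.15 ± 0.05 (edgeR adjusted p = 0.0889) and Krt20 at 0.28 ± 0.09 (edgeR adjusted p = 0.055). These 3 genes stood near the threshold, and all 3 passed it under DESeq2 (adjusted p = 0.0244, 0.0494 and 0.0133), with the compared groups fitted alone (edgeR adjusted p = 0.0158, 0.0416 and 0.0327) and without TAZ siRNA vehicle replicate 1 (edgeR adjusted p = 0.0386, 0.0399 and 0.0124). Krt8 also passed with no filter on low counts (0.0456) and without TAZ siRNA vehicle replicate 3 (0.00878), and Krt20 without TAZ siRNA vehicle replicate 2 (edgeR adjusted p = 0.0485). Without TAZ siRNA dDAVP replicate 2, Krt7 and Krt20 passed as well (edgeR adjusted p = 0.0268 and 0.0202), and the 4 calls held, at -0.20 for Krt18, -0.42 for Krt19, -1.30 for Krt23 and 0.68 for Krt80. The median of the 7 was -0.14, beside 0.00252 for all tested genes. Under dDAVP Upk1a fell by 0.24 ± 0.07 with TAZ siRNA (edgeR adjusted p = 0.0454) and Upk3b rose by 0.32 ± 0.06 (edgeR adjusted p = 0.00188), and their part was not tested.

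**Figure D4:**
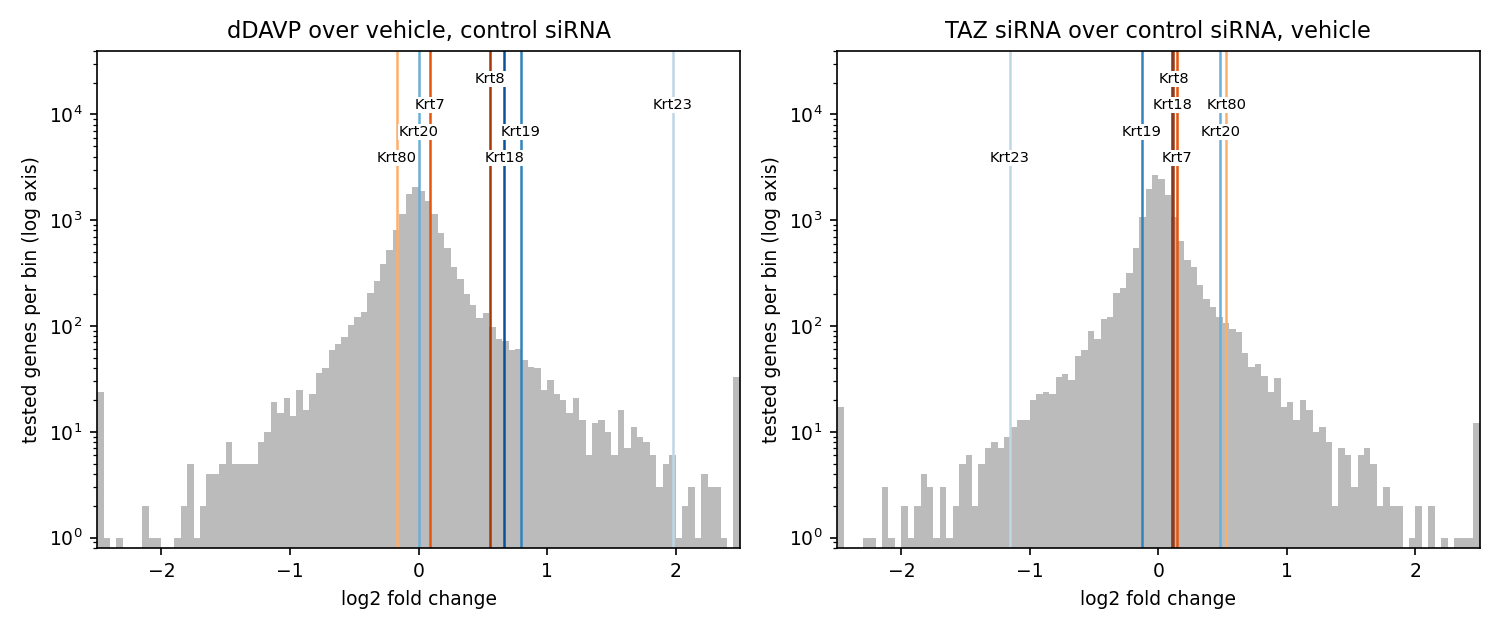
Distribution of log2 fold changes of the 15932 tested genes for dDAVP over vehicle with control siRNA (left) and TAZ siRNA over control siRNA with vehicle (right; grey bars, genes per bin on a log axis; the end bins also hold genes beyond the axis), with the 7 epithelial keratins marked by lines. Krt23 lies at 1.98 on the left and at -1.16 on the right, and the median of the 7 keratins is 0.56 on the left and 0.12 on the right.

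Whether the dDAVP change itself differed between the siRNAs was tested as TAZ siRNA minus control siRNA. It was -0.31 ± 0.06 log2 units for Krt18 (edgeR adjusted p = 0.0655), -0.32 ± 0.07 for Krt19 (edgeR adjusted p = 0.104) and -0.26 ± 0.07 for Krt8 (edgeR adjusted p = 0.247). By edgeR 0 of the 7 keratins were called, where 0.0314% of all genes were (0.0126% higher and 0.0188% lower). Before adjustment the edgeR p-values were 9.05e-05 for Krt18, 0.000261 for Krt19 and 0.00144 for Krt8, and at least 0.125 for the other members. DESeq2 called 3 of the 7, with DESeq2 adjusted p = 0.027 for Krt8, 0.000453 for Krt18 and 0.00358 for Krt19. It also called more of all genes than edgeR did, by the counts given with the alternative runs below, so its keratin calls are not set apart from that. Krt18 was also called by edgeR with no filter on low counts (adjusted p = 0.0454) and without TAZ siRNA vehicle replicate 1 (adjusted p = 0.0241). For Krt23 the difference was 0.0068 ± 0.27, with a 95% interval of -0.57 to 0.58. The median of the 7 was -0.20, beside 0.00195 for all tested genes.

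Of the other 48 genes with a keratin symbol, 19 had a count and 7 could be tested. Krt87 was called higher under dDAVP along with Krt8-ps, by 2.37 ± 0.72 log2 units with TAZ siRNA (edgeR adjusted p = 0.0425) and by 2.38 ± 0.70 with control siRNA (edgeR adjusted p = 0.0238). Its counts were few, 10, 19 and 14 with TAZ siRNA and dDAVP and 4, 0 and 6 with TAZ siRNA and vehicle. With control siRNA they were 27, 17 and 13 under dDAVP and 5, 0 and 5 under vehicle. No vehicle library reached the filter's minimum count of 10, so Krt87 entered the test only through the dDAVP groups, where it was high. The filter thus favoured a call in this direction, and the call is not taken as support for a dDAVP change. Vimentin (Vim), the intermediate filament protein of mesenchymal cells, was at 0 counts in all 12 libraries.

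Keratin filaments depend on linkers and partner proteins, which were read as a list of their own. Of 18 tested linkers and filament partners, 3 were called higher and 2 lower under dDAVP with TAZ siRNA, and 3 higher and 4 lower with control siRNA, with list medians of -0.05 and -0.01. Of all tested genes 6.38% were called higher and 4.41% lower under dDAVP with TAZ siRNA, and 9.72% higher and 9.48% lower under dDAVP with control siRNA. Among those lower with control siRNA were the desmosomal plakins Evpl (envoplakin, -0.24 ± 0.04, edgeR adjusted p = 0.000154) and Dsp (desmoplakin, -0.24 ± 0.04, edgeR adjusted p = 0.000206) and the keratin organiser Eppk1 (epiplakin, -0.25 ± 0.05, edgeR adjusted p = 0.00263). The plakin Dst went the other way, at 0.35 ± 0.08 with control siRNA (edgeR adjusted p = 0.00539) and 0.30 ± 0.08 with TAZ siRNA (edgeR adjusted p = 0.0229). Plec and Ppl were not called under dDAVP with either siRNA. With TAZ siRNA, 5 of the 18 were called higher under vehicle and 7 under dDAVP, where 3.19% and 5.77% of all tested genes were, with medians of 0.10 and 0.09. Under vehicle these included Plec (plectin, 0.20 ± 0.03, edgeR adjusted p = 0.00109), Itgb4 (integrin beta-4 of hemidesmosomes, 0.23 ± 0.04, edgeR adjusted p = 0.00132) and Ppl (periplakin, 0.17 ± 0.03, edgeR adjusted p = 0.00202).

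Among 20 tested regulators of epithelial transcription and splicing, 7 were called higher and 2 lower under dDAVP with TAZ siRNA (all tested genes 6.38% and 4.41%), and 8 higher and 1 lower with control siRNA (all tested genes 9.72% and 9.48%). With control siRNA, Tfap2a, an AP-2 transcription factor, rose by 0.43 ± 0.04 log2 units (edgeR adjusted p = 7.68e-07), Esrp2, an epithelial splicing regulator, rose by 0.32 ± 0.03 (edgeR adjusted p = 7.9e-07) and Jun, an AP-1 subunit, fell by 0.54 ± 0.04 (edgeR adjusted p = 7.34e-08). TAZ siRNA under vehicle gave 3 of the 20 called lower, where 3.11% of all tested genes were, namely Jun (-0.42 ± 0.04, edgeR adjusted p = 2.88e-05), Ets2 (-0.16 ± 0.03, edgeR adjusted p = 0.00977) and Fosl2 (-0.21 ± 0.05, edgeR adjusted p = 0.0153). Under dDAVP, TAZ siRNA gave 1 called higher and 3 called lower (all tested genes 5.77% and 4.97%).

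Several keratins are also known as markers of injured kidney tubules, so a list of other injury genes was read beside them. Of 14 tested, 4 were called higher and 2 lower under dDAVP with TAZ siRNA (all tested genes 6.38% and 4.41%), and 5 higher and 1 lower with control siRNA (all tested genes 9.72% and 9.48%). The proximal tubule injury marker Havcr1 was at 0 in all 12 libraries. With control siRNA the galectin Lgals3 rose by 0.82 ± 0.07 log2 units (edgeR adjusted p = 1.07e-07), Prom1, a membrane glycoprotein of regenerating tubules, by 0.64 ± 0.06 (edgeR adjusted p = 2.47e-07) and the secreted chaperone Clu by 0.29 ± 0.04 (edgeR adjusted p = 0.000115). TAZ siRNA under vehicle gave 6 of the 14 called higher, where 3.19% of all tested genes were, among them Clu (0.31 ± 0.04, edgeR adjusted p = 0.00056), Vcam1 (1.11 ± 0.24, edgeR adjusted p = 0.0101), a leukocyte adhesion molecule, and Lgals3 (0.30 ± 0.07, edgeR adjusted p = 0.0126), and under dDAVP it gave 1 called higher and 1 lower (all tested genes 5.77% and 4.97%).

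Of 10 tested lamins and other intermediate filament genes, 2 were called lower under dDAVP with TAZ siRNA, where 4.41% of all tested genes were. With control siRNA 1 was called higher and 1 lower (all tested genes 9.72% and 9.48%), the nuclear lamins Lmna (0.20 ± 0.05, edgeR adjusted p = 0.0106) and Lmnb1 (-0.15 ± 0.03, edgeR adjusted p = 0.00183). TAZ siRNA gave 1 called higher under vehicle, Iffo2 (0.39 ± 0.07, edgeR adjusted p = 0.00353), and 2 under dDAVP (all tested genes 3.19% and 5.77%).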

How the data were processed

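Messenger RNA of 12 mpkCCDc11 libraries was measured, 3 in each of 4 groups. The labels' protocols name 2 TruSeq kits, one of them stranded. Bowtie 0.12.2 and the builds mm8 and mm10 appear, without roles, in the submitters' processing notes. The program that made the counts is not stated there. The authors deposited an unnormalised estimated count, in whole numbers, for each gene and each transcript, per the file headers. Per the file headers they also deposited TPM, used to compare levels between genes, and FPKM, not used here. Reads of near-identical genes cannot be told apart in such counts. Transcript lengths were deposited too, and gave the alternative level per length.

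Counts were tested with edgeR 4.0.16 (R 4.3.3, limma 3.58.1): filterByExpr with a minimum count of 10, TMM scaling, a robust quasi-likelihood fit over all 12 libraries (common biological coefficient of variation 5.11%), and Benjamini-Hochberg adjustment over 15932 genes, called under 0.05. The design had assumed whole read counts; the estimated counts needed no rounding, and the test was kept. The standard error is the log2 fold change over the square root of F. A level of 3 counts is 0.0486 to 0.0665 CPM in these libraries, for counting error only. The script was tested on simulated data. Likeness of pattern is the root mean square difference of centred log2 CPM (prior count 1) over the 12 libraries. For each member of at least 10 mean CPM, the 3 nearest were taken from all tested genes that are no keratin. Copies were searched with blastn 2.17.0. The listed genes named are the 3 called with the lowest p under dDAVP with control siRNA and under TAZ siRNA with vehicle. Dst was named in addition, as a plakin that changed in the other direction. Alternatives were DESeq2 1.42.0, other size factors, no filter, the compared groups alone, a replicate block and leaving out each library. The labels do not say whether a replicate number marks a shared culture. Same-numbered libraries had correlations of -0.0451 to 0.0613 in their deviations from the group means, which do not settle it. The members and lists were chosen with earlier results of these data known.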

Additional observations from a re-analysis of the deposited data

How the results depend on the processing

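The 4 keratins called under dDAVP (Krt8, Krt18, Krt19 and Krt23) kept their direction and call with each siRNA under each alternative run. With dDAVP, TAZ siRNA gave 7 called keratins under DESeq2 and 7 with the compared groups alone, against 4. Leaving out libraries gave 4 to 7, with 7 without TAZ siRNA vehicle replicate 1. The share of all genes called for TAZ siRNA under dDAVP with DESeq2 or the compared groups alone is not given here. For dDAVP with control siRNA, DESeq2 called 3286 genes and the compared groups alone 3342, against 3058. For the difference between the siRNAs, DESeq2 called 87 genes and 3 keratins and no filter called 12 genes and 1 keratin, against 5 genes and 0 keratins; leaving out libraries gave 3 to 16 genes and 0 to 1 keratins. The cause was not tested.

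Leaving out libraries gave 2103 to 3250 called genes for dDAVP with control siRNA, 1118 to 1752 for dDAVP with TAZ siRNA (lowest without TAZ siRNA vehicle replicate 2), 410 to 1435 for TAZ siRNA under vehicle (410 without TAZ siRNA vehicle replicate 2, 511 without its replicate 3, 504 and 578 without control siRNA vehicle replicates 1 and 3) and 1049 to 1912 for TAZ siRNA under dDAVP (1054 without replicate 1 and 1110 without replicate 3 of TAZ siRNA dDAVP, 1114 without replicate 2 and 1049 without replicate 3 of control siRNA dDAVP).

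Values near 0 turned sign. The dDAVP change of Krt20 with control siRNA was 0.000401 with other size factors, 0.000437 under DESeq2, 0.00303 with no filter, 0.0033 with the compared groups alone and -0.049 to 0.074 without 1 library. The difference between the siRNAs was -0.018 for Krt7 and -0.014 for Krt23 with no filter, and without 1 library it ran from -0.055 to 0.055 for Krt7, -0.27 to 0.46 for Krt23 and -0.082 to 0.16 for Krt80.

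With the replicate block, 2983, 1663, 968, 1690 and 6 genes were called for dDAVP with control siRNA, dDAVP with TAZ siRNA, TAZ siRNA under vehicle, TAZ siRNA under dDAVP and the difference. Among the keratins the block changed only the call of Krt20 for TAZ siRNA under dDAVP (0.28, edgeR adjusted p = 0.0359). All 3 libraries correlated best with their own number for dDAVP with control siRNA and for TAZ siRNA under vehicle, and 1 of 3 did in each of the other two comparisons.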
